A study of Mus musculus with 12 samples.

Results

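The genes described here are 10 antioxidant genes of mouse peritoneal macrophages, chosen by name: Nfe2l2, Nqo1, Slc7a11, Gclc, Gclm, Gsr, Txnrd1, Prdx1, Srxn1 and Sod2. They are 10 of the 16920 genes in the deposited tables, and all 10 passed the filter on low counts together with 12054 others. To ask how the m6A reader Ythdf1 bears on the macrophage response to bacterial lipopolysaccharide (LPS), mRNA was sequenced from WT cells and from cells that carry the label Ythdf1 knockout (KO), each kept with PBS or treated with LPS, and each of the 4 groups had 3 libraries. LPS was given at 1 µg/mL, and cells were collected after 6 h of either treatment. The mice were young adults on a C57BL/6 background and the KO mice came from commercial suppliers, per the study's methods, and its text gives CRISPR/Cas9 as the way they were made. The cells had been drawn into the peritoneum with an irritant in every group (starch broth per the series record, thioglycollate per the study's methods), so none of the groups holds unstimulated resident cells.

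Ythdf1 transcript did not check the KO label: it averaged 43.5 CPM in WT PBS, 57.2 in KO PBS, 201 in WT LPS and 198 in KO LPS libraries, and the group is therefore called by its label. CPM is the normalised read count (counts per total, in CPM) after scaling between libraries. Total counts lay between 21546274 and 22017005 per library, and a floor of 3 counts was worth 0.105 to 0.187 CPM. All 10 macrophage marker genes lay above the floor in every library, with a summed level of 17422 to 19991 CPM. Replicate 1 of WT LPS stood apart from the other 2 libraries of its group, with a mean chi-square per gene of 31.4 and 24.4 against them and 3.01 between those 2. In KO LPS the largest such value was 15.9, between replicates 2 and 3, while the PBS groups reached at most 4.63. The labels call the replicates independent samples but do not say whether each came from its own mouse, so p-values measure the spread between these samples.

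NRF2, the protein of Nfe2l2, is a transcription factor that Keap1 holds in the cytoplasm and hands to a ubiquitin ligase. Oxidants and electrophiles modify cysteines of Keap1, NRF2 then escapes destruction, and with a small Maf partner it binds antioxidant response elements, where Bach1 competes for the same DNA. Its target genes supply cysteine and glutathione, recycle thioredoxin and repair peroxiredoxins, whereas Sod2, the manganese superoxide dismutase of mitochondria, is best known as an NF-kB target that turns superoxide into hydrogen peroxide.

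The letters of the antioxidant response element core, TGACNNNGC, were searched on both strands of the RefSeq promoter windows of build GRCm38.p6, which run from 250 bases before to 50 bases after an annotated start. They are shown because NRF2 binds this element, and a match of letters does not test binding. The core was in a window of 5 genes, and 12.4% of all 32851 windows hold it. The 5 stretches follow, each with 10 bases on either side, read on the strand that carries the core, which is in capitals.
Nfe2l2, chr2:75704885-75704913, minus strand: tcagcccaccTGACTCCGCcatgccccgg
Gclm, chr3:122245413-122245441, minus strand: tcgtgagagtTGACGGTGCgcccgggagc
Txnrd1, chr10:82859104-82859132, minus strand: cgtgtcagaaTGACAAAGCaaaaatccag
Srxn1, chr2:152105542-152105570, minus strand: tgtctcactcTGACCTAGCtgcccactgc
Prdx1, chr4:116685456-116685484, minus strand: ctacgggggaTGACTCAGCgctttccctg

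The core began 240 bases before the start of Nfe2l2 and, in Gclm, Prdx1 and 1 of the 3 windows of Txnrd1, 134, 133 and 92 bases before it. In Srxn1 it lay 29 to 37 bases after the start. The 9 letters in Prdx1 also held an AP-1 heptamer (TGANTCA, in 7.81% of all windows), and a separate heptamer lay 237 bases before its start. Srxn1 carried 2 AP-1 heptamers apart from its core, 102 and 45 bases before its start. The windows of Nqo1, Slc7a11 and Sod2 held neither motif. Gclc and Gsr had no window to search and are named only.

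The window of Slc7a11 held 2 copies of the amino acid response element core TGATGCAA, a sequence known to be bound by ATF4 of the amino acid starvation response. This motif was searched after the values of Slc7a11 had been seen, and 0.895% of all windows hold it. The copies face each other with 11 bases between them, 66 and 40 bases before the start at their outer ends, and the window lies inside the annotated span of the gene (chromosome 3, 50364936 to 50499087). Both copies are in capitals below.
Slc7a11, chr3:50443652-50443680, minus strand: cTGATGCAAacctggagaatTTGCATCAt

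Per kilobase of mean annotated transcript length, Prdx1 was the most abundant of the 10 genes in WT PBS libraries, at 1283 ± 58.4 CPM per kb (SD, n = 3). Srxn1 at 128 ± 4.42, Nfe2l2 at 109 ± 2.0 and Txnrd1 at 78.1 ± 1.87 came next, followed by Gsr at 44.7 ± 2.03, Sod2 at 36.1 ± 1.15, Gclm at 31.5 ± 1.22 and Gclc at 21.0 ± 0.316 CPM per kb. Slc7a11 at 2.38 ± 0.0948 and Nqo1 at 2.36 ± 0.103 closed the order and did not differ beyond their spread. After LPS, Sod2 moved to second place in both genotypes, at 783 ± 85.2 CPM per kb in WT and 1046 ± 79.9 in KO-labelled cells. Slc7a11 reached 21.7 ± 1.80 in WT, next to Gclm at 22.1 ± 0.921, and 94.6 ± 9.43 in KO-labelled cells, above Gclm at 37.3 ± 2.89 CPM per kb. The length chosen moves these levels: with the longest annotated transcript, Nfe2l2 at 86.2 stood above Srxn1 at 55.0 CPM per kb in WT PBS, Slc7a11 at 0.927 stood below Nqo1 at 2.36, and with LPS in WT Slc7a11 at 8.46 stood above Gclm at 5.71 CPM per kb.

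**Figure D1:**
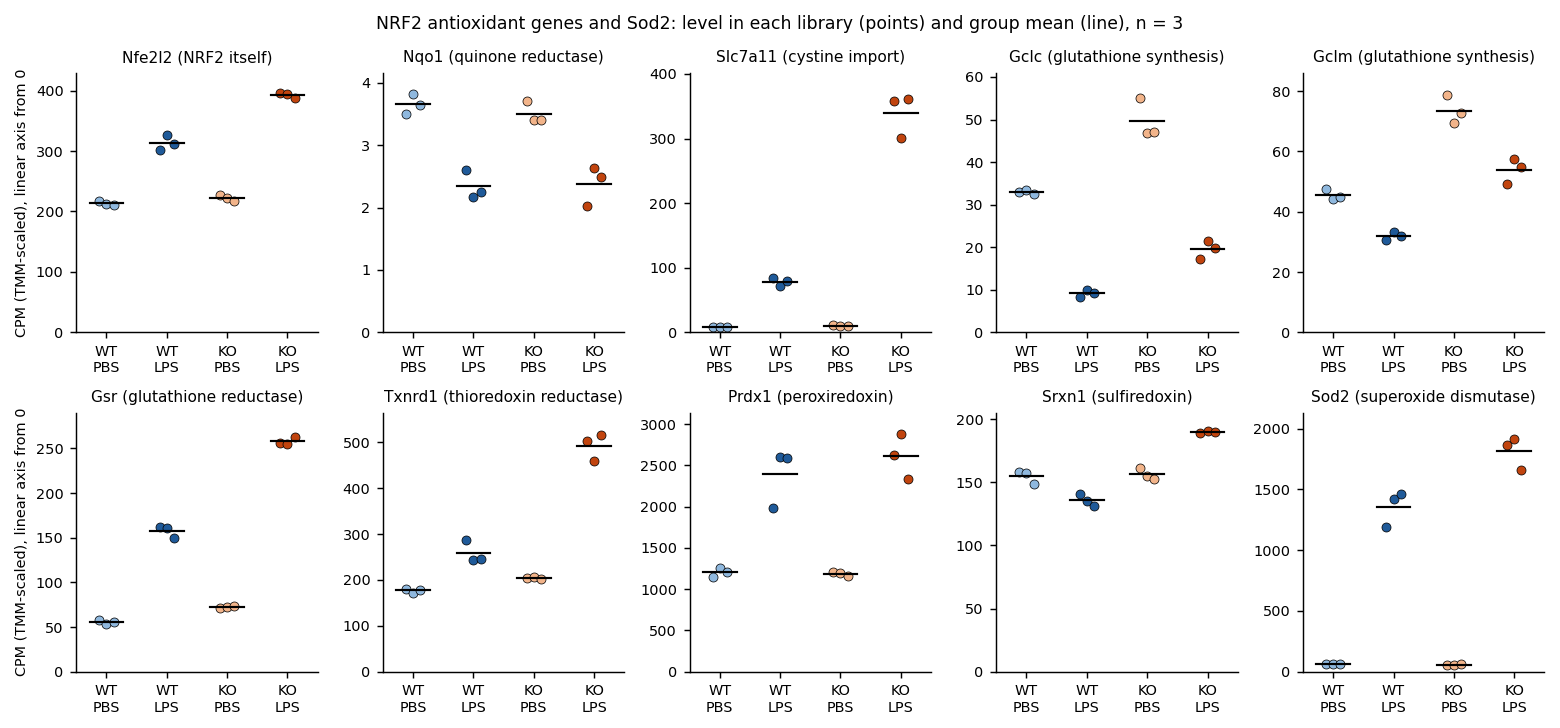
Each panel plots the level of a gene in CPM (linear axis from 0) in the 12 libraries, as points, with the mean of each group as a line. Slc7a11 and Sod2 rose steeply with LPS, Gclc and Gclm fell with LPS but stood higher in KO-labelled libraries, and Srxn1 went down in WT and, on this scale but not with upper-quartile or library-total scaling, up in KO-labelled libraries.

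With LPS, the mRNA of 6 of the 10 genes was higher in WT cells and that of 4 was lower. Sod2, Slc7a11, Gsr, Prdx1, Nfe2l2 and Txnrd1 rose, from 21.7-fold for Sod2 to 1.46-fold for Txnrd1 (with library totals alone, Nfe2l2 and Txnrd1 changed sign and lost their calls), whereas Gclc, Nqo1, Gclm and Srxn1 fell. In KO-labelled cells 7 were higher and 3 lower, since Srxn1 changed sides under the main scaling. Over all 12064 genes tested, 36.5% were called higher and 40.2% lower with LPS in WT, and 38.8% higher and 41.1% lower in KO-labelled cells (edgeR's quasi-likelihood test, adjusted p under 0.05), so a change with LPS was common in these libraries. The median log2 fold change of the 10 genes was 0.55 in WT and 0.98 in KO-labelled cells, beside -0.05 and -0.04 over all genes tested. Both LPS comparisons depend on how libraries are scaled: library totals alone, in place of the trimmed mean of M values, shift the median of all genes by -0.66 and -0.80 on the log2 scale, and then 4 of the 10 were higher and 4 lower in WT. Of the 10470 genes called in WT under that scaling, 21.2% were higher. In bulk RNA, fewer cells of a type and less RNA per cell cannot be told apart.

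Slc7a11 encodes the cystine carrier of system xc-, which brings in the building block that limits glutathione synthesis. It stood at 8.32, 8.94 and 8.40 CPM in the WT PBS libraries and at 83.9, 71.1 and 79.0 CPM in WT LPS. The KO PBS libraries held 10.8, 9.93 and 9.81 CPM and the KO LPS libraries 358, 301 and 361 CPM. The 3 KO LPS libraries all lay above 300 CPM while no WT LPS library passed 84, and PBS and LPS did not overlap in either genotype. LPS raised Slc7a11 9.11-fold in WT (log2 fold change 3.19, SE 0.0907, edgeR adjusted p = 3.86e-15) and 33.4-fold in KO-labelled cells (5.06, SE 0.0925, adjusted p = 1.26e-17). Its counts carried decimals in all 12 libraries, as those of Sod2 did, as happens where a counter shares reads between loci, so both levels carry that uncertainty. The heavy chain that partners this carrier, Slc3a2, rose as well, from 368 ± 1.19 to 674 ± 24.6 CPM in WT and from 393 ± 7.07 to 870.1 ± 22.8 CPM in KO-labelled cells.

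Gclc and Gclm, the catalytic and the modifier subunit of glutamate-cysteine ligase, the first enzyme of glutathione synthesis, went the other way from the carrier. Gclc stood at 33.0, 33.6 and 32.6 CPM in WT PBS and at 8.39, 9.85 and 9.36 CPM in WT LPS libraries. In KO-labelled libraries it stood at 55.1, 46.9 and 47.0 CPM with PBS and at 17.2, 21.5 and 19.7 CPM with LPS. Gclc was thus the member that fell furthest, by 1.84 on the log2 scale in WT (SE 0.0967, edgeR adjusted p = 1.71e-11) and by 1.35 in KO-labelled cells (SE 0.0873, adjusted p = 2.58e-10). Gclm held 47.5, 44.2 and 44.8 CPM in WT PBS and 30.6, 33.3 and 31.9 CPM in WT LPS libraries. In KO-labelled libraries it held 78.7, 69.3 and 72.7 CPM with PBS and 49.3, 57.4 and 55.0 CPM with LPS. The fall of Gclm was smaller than that of its partner, by 0.51 in WT (adjusted p = 6.48e-06) and by 0.45 in KO-labelled cells (adjusted p = 1.58e-05).

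Gsr, glutathione reductase, regenerates reduced glutathione with NADPH. It stood at 58.0, 53.0 and 55.9 CPM in WT PBS and at 162, 160.3 and 149 CPM in WT LPS libraries. KO-labelled libraries held 70.9, 72.7 and 73.3 CPM with PBS and 256, 255 and 263 CPM with LPS. The groups did not overlap in any of the 4 comparisons. LPS raised Gsr 2.83-fold in WT (adjusted p = 1.79e-13, edgeR) and 3.57-fold in KO-labelled cells (adjusted p = 9.47e-15).

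The thioredoxin arm was led by Prdx1, a peroxiredoxin that reduces hydrogen peroxide. It held 1149.7, 1259 and 1204 CPM in WT PBS libraries, and 1984, 2604 and 2585 CPM in WT LPS libraries, of which the low value is that of the library that stood apart. KO-labelled libraries held 1213, 1191 and 1155 CPM with PBS and 2619, 2875 and 2333 CPM with LPS. The rise was 1.99-fold in WT (log2 fold change 0.99, SE 0.0941, edgeR adjusted p = 7.09e-08) and 2.20-fold in KO-labelled cells (1.14, SE 0.0944, adjusted p = 1.1e-08), and without replicate 1 of WT LPS the former became 1.11 on the log2 scale. Txnrd1, the cytosolic thioredoxin reductase that keeps this arm supplied with electrons, stood at 181, 173 and 179 CPM in WT PBS and at 288, 243 and 247 CPM in WT LPS libraries. In KO-labelled libraries it went from 203, 206 and 203 CPM to 503, 459 and 516 CPM. Its rise was 1.46-fold in WT (adjusted p = 1.2e-06), which became a log2 fold change of -0.12 (adjusted p = 0.0816) under library totals alone, and 2.41-fold in KO-labelled cells (adjusted p = 1.67e-11).

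Srxn1, sulfiredoxin, repairs overoxidised peroxiredoxins. It was the only one of the 10 genes called in opposite directions in the 2 genotypes. WT libraries held 158, 158 and 149 CPM with PBS and 141, 135 and 131 CPM with LPS, and KO-labelled libraries held 161, 155 and 153 CPM with PBS and 189, 191 and 189.9 CPM with LPS. The 2 PBS groups overlapped and the 2 LPS groups lay on either side of them. The log2 fold change was -0.19 in WT (SE 0.0523, edgeR adjusted p = 0.00366) and 0.28 in KO-labelled cells (SE 0.0521, adjusted p = 0.000112). The rise in KO-labelled cells rests on the scaling, being -0.08 with upper-quartile scaling (adjusted p = 0.179) and -0.52 with library totals alone (adjusted p = 3.81e-08).

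Nfe2l2 itself stood at 218, 212 and 210.4 CPM in WT PBS and at 302, 326 and 312 CPM in WT LPS libraries. KO-labelled libraries held 227, 222 and 217 CPM with PBS and 395, 394 and 387 CPM with LPS. The transcript of NRF2 was therefore higher with LPS in both genotypes, 1.47-fold in WT (adjusted p = 2.77e-08, edgeR) and 1.76-fold in KO-labelled cells (adjusted p = 1.31e-10), but with library totals alone the log2 fold changes were -0.11 and 0.02. NRF2 is regulated chiefly as a protein, which these libraries do not measure. Nqo1, the quinone reductase most often used to report NRF2 activity, was scarcely expressed. It held 3.51, 3.83 and 3.65 CPM in WT PBS, 2.60, 2.16 and 2.26 in WT LPS, 3.71, 3.4 and 3.4 in KO PBS and 2.03, 2.63 and 2.49 CPM in KO LPS libraries, which is 33 to 107 counts per library. Even so it was lower with LPS in both genotypes, with log2 fold changes of -0.64 (SE 0.139, adjusted p = 0.000474) and -0.56 (SE 0.141, adjusted p = 0.00175).

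Sod2 showed the largest LPS response among the members in WT cells. It stood at 61.2, 61.7 and 64.9 CPM in WT PBS libraries and at 1188, 1424 and 1460.5 CPM in WT LPS libraries, the lowest again being the library that stood apart. KO-labelled libraries held 52.8, 58.0 and 60.5 CPM with PBS and 1866, 1919 and 1657 CPM with LPS. The rise was 21.7-fold in WT (log2 fold change 4.44, SE 0.0918, edgeR adjusted p = 7.04e-17) and 31.8-fold in KO-labelled cells (4.99, SE 0.0942, adjusted p = 1.82e-17), and the LPS groups of the 2 genotypes did not overlap. Sod1, the cytosolic enzyme for the same reaction, held 79.2 ± 3.64 CPM in WT PBS and 81.1 ± 2.41 CPM in WT LPS libraries, with a log2 fold change of 0.04 (adjusted p = 0.61), but it was called lower with upper-quartile scaling (-0.27, adjusted p = 0.00145) and with library totals alone (-0.63, adjusted p = 1.22e-07).

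**Figure D2:**
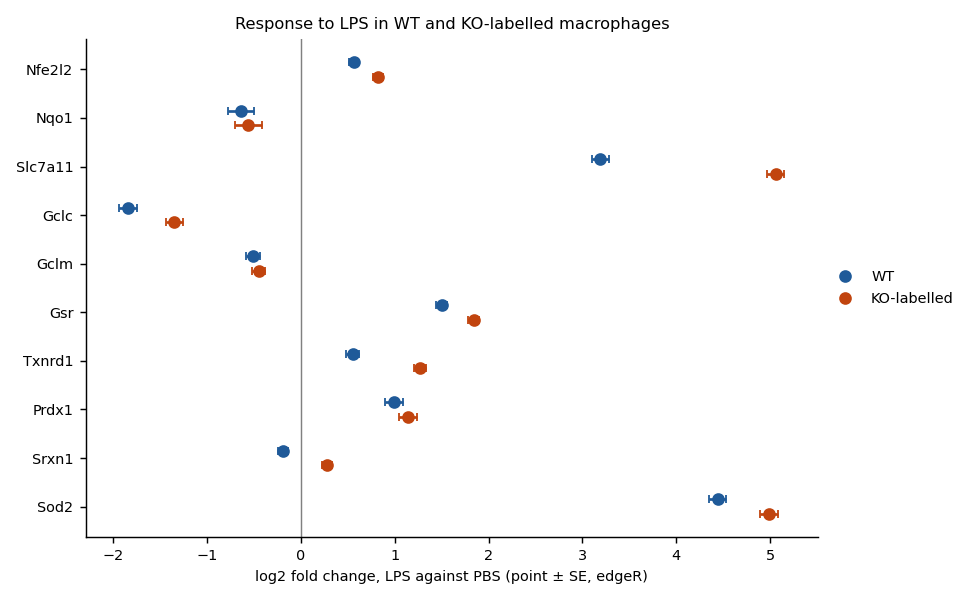
The log2 fold change of each gene with LPS is plotted with its SE (edgeR, n = 3 against 3) for WT and KO-labelled cells. Slc7a11 and Sod2 stand far to the right of the others, Gclc, Gclm and Nqo1 lie left of 0 in both, and the WT and KO-labelled points of Srxn1 lie on opposite sides of 0, which they do not with upper-quartile or library-total scaling.

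Between the genotypes under PBS, 4 of the 10 genes were higher in KO-labelled cells and none was lower, while 12.3% of all genes tested were called higher and 13.0% lower. They were Gclm (1.62-fold, log2 difference 0.69, SE 0.0684, edgeR adjusted p = 2.41e-06), Gclc (1.5-fold, adjusted p = 6.48e-05), Gsr (1.3-fold, adjusted p = 0.000148) and Txnrd1 (1.15-fold, adjusted p = 0.0358). Each of these 4 had PBS groups that did not overlap. No member was lower with DESeq2 either, and none at an unadjusted p under 0.05, but with only the libraries compared Sod2 was called lower (-0.13, adjusted p = 0.0336). Txnrd1 was no longer called without replicate 2 of WT PBS (adjusted p = 0.119) or without replicate 3 (0.084). Slc7a11 missed the threshold (log2 difference 0.25, interval 0.04 to 0.46, adjusted p = 0.073), although its groups did not overlap. It was called higher under PBS with only the libraries compared (adjusted p = 0.021), with library totals alone (0.30 on the log2 scale, adjusted p = 0.0277) and without replicate 2 of KO LPS (adjusted p = 0.0354). For Nfe2l2, Srxn1 and Prdx1 the 95% intervals of the log2 difference were -0.05 to 0.16, -0.09 to 0.13 and -0.22 to 0.18, and for Nqo1 and Sod2 they were -0.31 to 0.19 and -0.31 to 0.04.

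With LPS, 8 of the 10 genes were higher in KO-labelled than in WT cells and none was lower, while 22.1% of all genes tested were called higher and 19.3% lower. The median log2 difference of the 10 was 0.60, beside 0.00 over all genes tested. Slc7a11 differed most, 4.36-fold (2.12, SE 0.0787, edgeR adjusted p = 1.7e-11). The other glutathione genes followed with Gclc at 2.12-fold (1.08, SE 0.104, adjusted p = 9.25e-07), Gclm at 1.69-fold (adjusted p = 1.01e-06) and Gsr at 1.64-fold (adjusted p = 8.38e-08). In the thioredoxin arm, Txnrd1 was 1.90-fold higher (0.93, SE 0.067, adjusted p = 4.54e-08) and Srxn1 1.40-fold (adjusted p = 3.16e-06), whereas Prdx1 gave an interval of -0.07 to 0.32 on the log2 scale. Sod2 was 1.34-fold higher (adjusted p = 0.000514), which became 0.33 in place of 0.42 on the log2 scale without replicate 1 of WT LPS, and Nfe2l2 1.25-fold (adjusted p = 9.98e-05). For Nqo1 the interval of -0.32 to 0.37 was the widest of the 10, and at 33 to 45 counts in the LPS libraries a smaller difference was not detectable at this depth. The 8 higher calls were also made with each library left out in turn, with DESeq2 and with the 3 other scalings, and the groups of each of these 8 genes did not overlap. No member was lower at an unadjusted p under 0.05, and none with DESeq2.

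**Figure D3:**
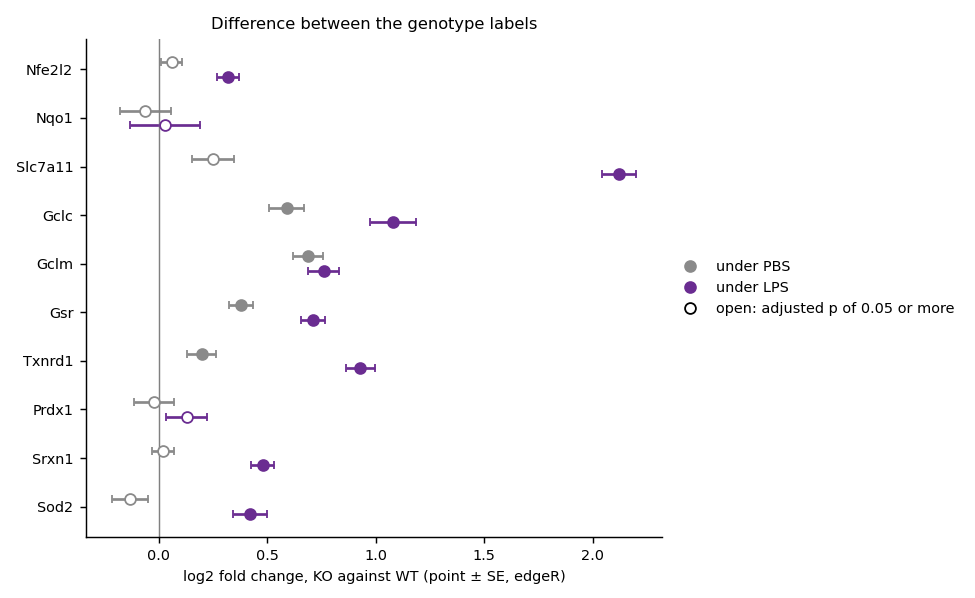
The log2 difference between KO-labelled and WT cells is plotted with its SE for PBS and for LPS (edgeR, n = 3 against 3; open points did not pass the threshold). Gclc, Gclm, Gsr and Txnrd1 were already higher under PBS, and under LPS every gene but Nqo1 and Prdx1 was higher, Slc7a11 by most.

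Markers of several other cell types moved with the same labels, and not all in the same direction. The summed level of 8 skeletal muscle markers was 32.6 to 38.6 CPM in WT LPS libraries, with 8 of 8 above the floor, and 1.29 to 2.18 CPM in KO LPS libraries, with 2 of 8 above the floor and 4 at 0 throughout. Acta1 led the list in WT LPS with 15.2 ± 0.778 CPM and averaged 0.103 in KO LPS, where most of the sum was Tnni2 (1.23 ± 0.333 CPM). Under PBS they summed to 22.1 to 28.2 CPM in WT, with 8 of 8 above the floor, and to 3.72 to 25.0 CPM in KO-labelled libraries, with 2 of 8 above the floor in every library, and these ranges overlap. The 8 fibroblast markers, led by Col1a2, summed to 130 to 144 CPM in WT LPS and 68.2 to 83.9 in KO LPS libraries. With PBS the sums were 75.4 to 89.1 for WT and 33.4 to 46.7 CPM for the KO label. Col1a1, Col1a2, Col3a1, Dcn and Pdgfra had lower means under the KO label with either treatment. Pdgfrb did not, with LPS means of 12.2 ± 1.73 under the KO label beside 10.7 ± 1.43 CPM for WT. With PBS Pdgfrb averaged 0.410 ± 0.113 and 0.227 ± 0.0897 CPM in the same order. Lum and Thy1 averaged at most 0.287 CPM in any group. The sum of the 6 B cell markers was nearly all Cd22, 1 of the 6 lay above the floor in every LPS library and 3 in every PBS library, and it came to 74.1 to 90.4 CPM with LPS in WT and to 47.9 to 53.3 CPM with LPS in KO-labelled libraries, and to 111 to 116 against 102 to 104 CPM with PBS. The defining genes Cd79a and Ms4a1 averaged at most 0.180 CPM in any group. The 6 T cell markers summed to 10.4 to 14.1 CPM with LPS in WT and to 5.03 to 5.57 CPM in KO-labelled libraries, and with PBS to 2.31 to 2.97 and 1.95 to 2.25 CPM. Most of the LPS sums was Lck (10.3 ± 2.41 CPM for WT, 3.96 ± 0.278 for KO-labelled cells). With PBS Lck averaged 0.0716 and 0.0821 CPM. The defining genes Cd3d, Cd3e and Cd3g lay at or near 0 in every group. Cd8a held 0.704 ± 0.0888 against 0.740 ± 0.226 CPM with LPS. Cd4 was lower under the KO label with PBS, at 1.11 ± 0.147 beside 1.78 ± 0.116 CPM for WT, without overlap. With LPS Cd4 averaged 0.452 ± 0.0332 beside 0.914 ± 0.594 CPM for WT, and these libraries overlapped. The 7 neutrophil markers in the tables, led by S100a8, summed to 5.65 to 6.94 CPM in WT PBS and 7.48 to 7.97 in KO PBS, and to 11.9 to 14.5 in WT LPS and 13.9 to 21.9 CPM in KO LPS libraries, where the ranges overlap, with 2 or 3 of 7 above the floor. The 10 mesothelium markers summed to 11.8 to 13.4 CPM in WT PBS and 6.91 to 11.1 in KO PBS, and to 12.4 to 15.1 in WT LPS and 9.21 to 13.9 CPM in KO LPS libraries, where they overlap too, with 8 or 9 of 10 above the floor. Wt1 of this list lay apart, at 2.65 to 2.96 CPM in WT LPS and 0.675 to 1.31 in KO LPS libraries. Their part in the differences of Slc7a11, Gclc, Gclm, Gsr, Txnrd1, Srxn1, Nfe2l2 and Sod2 was not tested.

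Whether LPS acted differently in the 2 genotypes was tested with the interaction of label and treatment. It was positive and past the threshold for 7 of the 10 genes and for none in the other direction, while 9.78% of all genes tested had a higher and 8.26% a lower interaction. The LPS response of KO-labelled cells exceeded that of WT cells by 1.87 on the log2 scale for Slc7a11 (SE 0.125, edgeR adjusted p = 1.05e-07), 0.72 for Txnrd1 (SE 0.0943, adjusted p = 7.88e-05), 0.55 for Sod2 (adjusted p = 0.00344) and 0.47 for Srxn1 (adjusted p = 0.00041). Gclc at 0.49 (adjusted p = 0.0164), Gsr at 0.34 (adjusted p = 0.00733) and Nfe2l2 at 0.26 (adjusted p = 0.0171) passed as well. These last 3 missed the threshold under library totals alone, and the call was also lost for Nfe2l2 with upper-quartile scaling (0.22, adjusted p = 0.0623), without replicate 1 of WT PBS or without any 1 KO PBS library, and for Gclc without replicate 2 or 3 of KO PBS. Gclm did not pass, with an interval of -0.15 to 0.28: its difference between the genotypes was 0.69 under PBS and 0.76 under LPS. For Prdx1 the interval was -0.13 to 0.43 and for Nqo1 -0.34 to 0.51. No member had a lower interaction with DESeq2 or at an unadjusted p under 0.05.

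Ratios of counts within a library do not depend on the scaling between libraries. The Gclm to Gclc ratio, which sets the modifier against the catalytic subunit, was 1.32 to 1.44 in WT PBS and 1.43 to 1.54 in KO PBS libraries, and it moved to 3.38 to 3.65 in WT LPS and 2.66 to 2.87 in KO LPS libraries. Srxn1 to Prdx1 was 0.123 to 0.137 in WT PBS and 0.130 to 0.133 in KO PBS, and it moved to 0.0509 to 0.0709 in WT LPS and 0.0663 to 0.0814 in KO LPS. The 2 LPS groups overlapped for this ratio and not for the other 2, through replicate 1 of WT LPS (0.0709), the library that stood apart, while the other 2 WT LPS libraries (0.0519 and 0.0509) lay below every KO LPS library. Txnrd1 to Gsr moved from 3.12 to 3.26 down to 1.51 to 1.77 in WT libraries, and from 2.77 to 2.87 down to 1.80 to 1.96 in KO-labelled libraries. The ratios were chosen after the values of the 10 genes had been seen, and their ranges are given as a description, without a test.

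**Figure D4:**
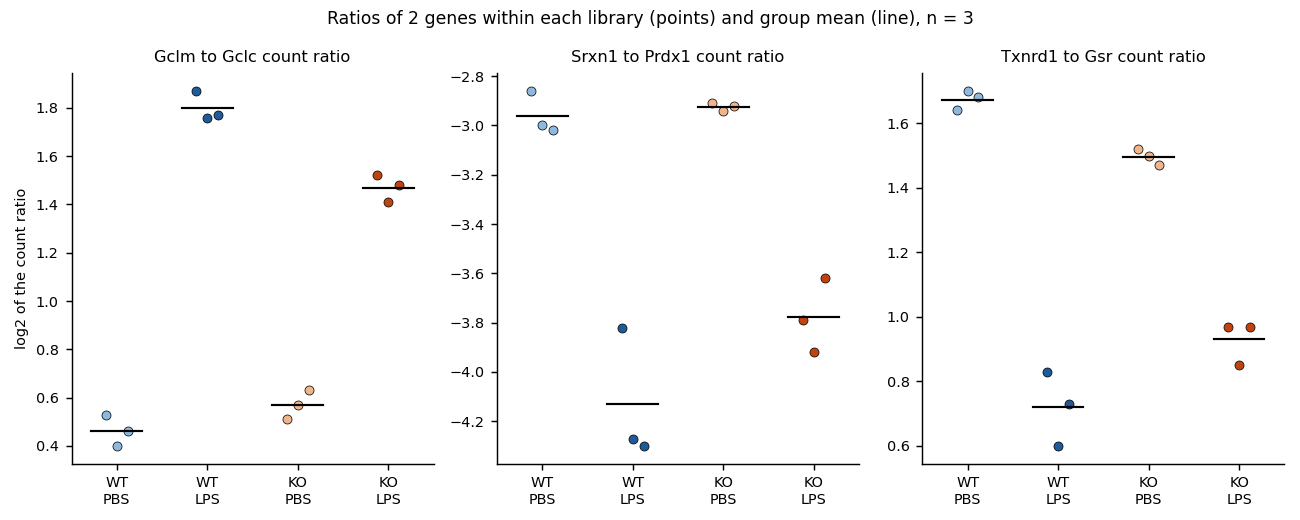
The log2 of each count ratio is plotted for the 12 libraries, as points, with the mean of each group as a line. Gclm to Gclc went up with LPS in both genotypes, and Srxn1 to Prdx1 and Txnrd1 to Gsr went down.

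The counts of the related lists that follow stand beside shares over all genes tested of 36.5% higher and 40.2% lower with LPS in WT, and of 22.1% higher and 19.3% lower in KO-labelled cells under LPS. These are shares under the main scaling. With upper-quartile scaling 9666 genes were called with LPS in WT and 4998 between the genotypes under LPS, of which 32.5% and 41.6% were higher. With library totals alone the calls were 10470 and 5069, of which 21.2% and 37.9% were higher. Among 15 regulators and partners of NRF2, 9 were higher and 6 lower with LPS in WT cells (7 and 6 with upper-quartile scaling). Keap1, the repressor, rose from 47.1 ± 0.449 to 168.5 ± 18.3 CPM (log2 fold change 1.84, edgeR adjusted p = 6.95e-13). Mafk, a small Maf partner, rose from 22.6 ± 0.588 to 109.7 ± 4.87 CPM (2.28, adjusted p = 1.85e-15). Bach1, the competing repressor, fell from 89.6 ± 0.744 to 65.1 ± 2.87 CPM (-0.46, adjusted p = 1.35e-05), and Gsk3b, a kinase that marks NRF2 for destruction, fell to a like degree (-0.46, adjusted p = 4.57e-05). Between the genotypes under LPS 5 of the 15 were higher and 1 lower in KO-labelled cells (3 lower with upper-quartile scaling and 4 with library totals alone). Sqstm1, the autophagy receptor p62 that binds Keap1, was higher there (987 ± 99.3 against 1622 ± 32.9 CPM, log2 difference 0.72, adjusted p = 5.92e-07), as were Maff (0.60, adjusted p = 0.00048) and Bach1 (0.32, adjusted p = 0.00169). Keap1 was the lower one (-0.31, adjusted p = 0.00282), joined by Mafk and Syvn1 under both of those scalings and by Fbxw11 under library totals. Sqstm1 also had the only positive interaction called in the list (0.44, adjusted p = 0.0038).

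Of 26 further NRF2 target genes tested, 4 were higher and 19 lower with LPS in WT cells, and the list's median log2 fold change was -0.33. Idh1, a cytosolic source of NADPH, fell from 215 ± 6.60 to 16.8 ± 0.580 CPM (-3.68, edgeR adjusted p = 1.35e-17), and Cbr1, a carbonyl reductase, fell by 1.54 (adjusted p = 1.99e-09). Fth1, ferritin heavy chain, rose from 11675 ± 446 to 23302 ± 795 CPM, and Abcc1, an exporter of glutathione conjugates, by 1.35 (adjusted p = 7.36e-07). Between the genotypes under LPS 5 were higher (3 with upper-quartile or library-total scaling) and 8 lower in KO-labelled cells, with a median log2 difference of -0.01, beside 22.1% higher and 19.3% lower over all genes tested. Hmox1, heme oxygenase, was the most raised of those the naming rule selected, with 440.1 ± 8.37 CPM in WT PBS, 315 ± 22.6 in WT LPS, 435 ± 9.99 in KO PBS and 489 ± 29.5 CPM in KO LPS libraries. It fell with LPS in WT cells (-0.48, adjusted p = 2.07e-06) and its log2 difference between the genotypes under LPS was 0.63 (adjusted p = 1.1e-06). Abcc1 was higher in KO-labelled cells under LPS too (0.54, adjusted p = 0.00518), while Cbr1 (-0.83, adjusted p = 0.000827), Akr1b8, an aldo-keto reductase (-0.69, adjusted p = 1.76e-06), and Gstp1, a glutathione transferase (-0.42, adjusted p = 0.00182), were lower.

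In the wider glutathione list, 6 of 23 genes were higher and 7 lower with LPS in WT cells. With upper-quartile scaling 15 were lower, where of all 9666 genes called only 32.5% were higher. Ggct (2.53, edgeR adjusted p = 1.89e-10) and Chac2 (2.21, adjusted p = 5.93e-08), which both take glutathione or its fragments apart, rose from under 2 CPM, and Glo1, which clears methylglyoxal with glutathione, fell (-0.91, adjusted p = 1.27e-07), as did Glrx5, a mitochondrial glutaredoxin (-0.66, adjusted p = 2.25e-05). Under LPS 4 of the 23 were higher (2 with upper-quartile or library-total scaling) and 11 lower in KO-labelled cells. Slc3a2 (0.37, adjusted p = 2.92e-05) and Ggct (0.49, adjusted p = 0.00492) were among the higher ones. Gpx4, the peroxidase that protects membranes from lipid peroxides, was lower, with a mean of 116 ± 5.95 CPM in KO-labelled against 171 ± 9.52 CPM in WT cells (-0.56, adjusted p = 3.26e-06), and so was Hagh, the second enzyme of methylglyoxal removal (-0.74, adjusted p = 8.5e-05). Slc7a11 and Gpx4 thus moved in opposite directions between the genotypes.

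Among 17 genes of the thioredoxin and peroxiredoxin system, 8 were higher and 7 lower with LPS in WT cells (5 and 9 with upper-quartile scaling). Prdx5, a peroxiredoxin of mitochondria and peroxisomes, rose from 125 ± 8.44 to 709 ± 103 CPM (2.50, edgeR adjusted p = 1.91e-12). The sestrins split: Sesn3 rose (3.14, adjusted p = 5.7e-11), while Sesn1 fell from 62.0 ± 1.34 to 1.25 ± 0.251 CPM (-5.62, adjusted p = 6.93e-17) and Sesn2 by 2.06 (adjusted p = 3.73e-09). Under LPS 3 were higher in KO-labelled cells, among them Prdx5 (0.38, adjusted p = 0.00592) and Txnip, the thioredoxin inhibitor (0.37, adjusted p = 0.000186). There 6 were lower, among them Prdx2 (-0.45, adjusted p = 0.00021) and Msrb1, a methionine sulfoxide reductase (-0.44, adjusted p = 0.000103).

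Most genes of Sod2's own list did not rise with it. Of 10 superoxide dismutases and mitochondrial partners, 1 was higher and 5 lower with LPS in WT cells. With upper-quartile scaling 9 were lower, where of all 9666 genes called only 32.5% were higher. Txnrd2, the mitochondrial thioredoxin reductase, fell by 1.32 under the main scaling (edgeR adjusted p = 2.8e-08). The higher one was Sod3, the extracellular dismutase, at 3.23 on the log2 scale (adjusted p = 6.88e-10), named here after its values were seen. Its mean lay under 5 CPM in both WT groups, so this is a rise at a low level that the naming rule leaves out. Under LPS 1 of the 10 was higher in KO-labelled cells and 5 lower, including Sod1 (-0.24, adjusted p = 0.00587) and Ucp2, an inner-membrane carrier (-0.41, adjusted p = 0.00113). The higher one between the genotypes was Nnt, the transhydrogenase that supplies mitochondrial NADPH, with 18.1 ± 1.02 CPM in WT PBS, 11.4 ± 2.32 in WT LPS, 38.5 ± 0.496 in KO PBS and 18.4 ± 0.307 CPM in KO LPS libraries. Nnt is disrupted in some C57BL/6 substrains, and the part of the substrain in this difference was not tested. Of 15 early NF-kB target genes, by contrast, 15 were higher with LPS in WT cells, with a median log2 fold change of 4.09, Cd40 (7.62) and Nfkbiz (7.31) leading, so the 4.44 of Sod2 lay near the middle of that list. Under LPS 12 of the 15 were higher in KO-labelled cells, such as Tnfaip3 (0.68, adjusted p = 1.37e-06) and Nfkb1 (0.60, adjusted p = 5.59e-05), and 1 was lower, Icam1 (-0.37, adjusted p = 0.000362).

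The NADPH oxidase makes superoxide, and the mRNA of 9 of its genes was tested, not superoxide itself. With LPS 8 were higher and 1 lower in WT cells, but 3 higher and 5 lower with library totals alone. Cybb, the catalytic subunit, rose from 928 ± 16.2 to 3168 ± 72.4 CPM (1.77, edgeR adjusted p = 1.66e-14) and Rac2 by 1.60 (adjusted p = 5.69e-14). Cybb (0.62, adjusted p = 3.26e-07) and Ncf4 (0.54, adjusted p = 3.23e-06) were among 5 genes higher in KO-labelled cells under LPS, and Ncf1 (-0.27, adjusted p = 0.000486) and Cyba (-0.25, adjusted p = 0.00437) were the 2 lower ones. Of 5 metallothionein genes and zinc regulators, 4 were higher with LPS in WT cells (2 higher and 2 lower with library totals alone), led by Mt2 (3.87, adjusted p = 5.88e-16) and Mt1 (0.96, adjusted p = 6.91e-09). Under LPS the zinc exporter Slc30a1 was lower in KO-labelled cells (-0.82, adjusted p = 6.53e-08) and Mtf1, the metal sensor, higher (0.19, adjusted p = 0.0367), a call lost with upper-quartile scaling (adjusted p = 0.152) and with library totals alone (adjusted p = 0.242).

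**Figure D5:**
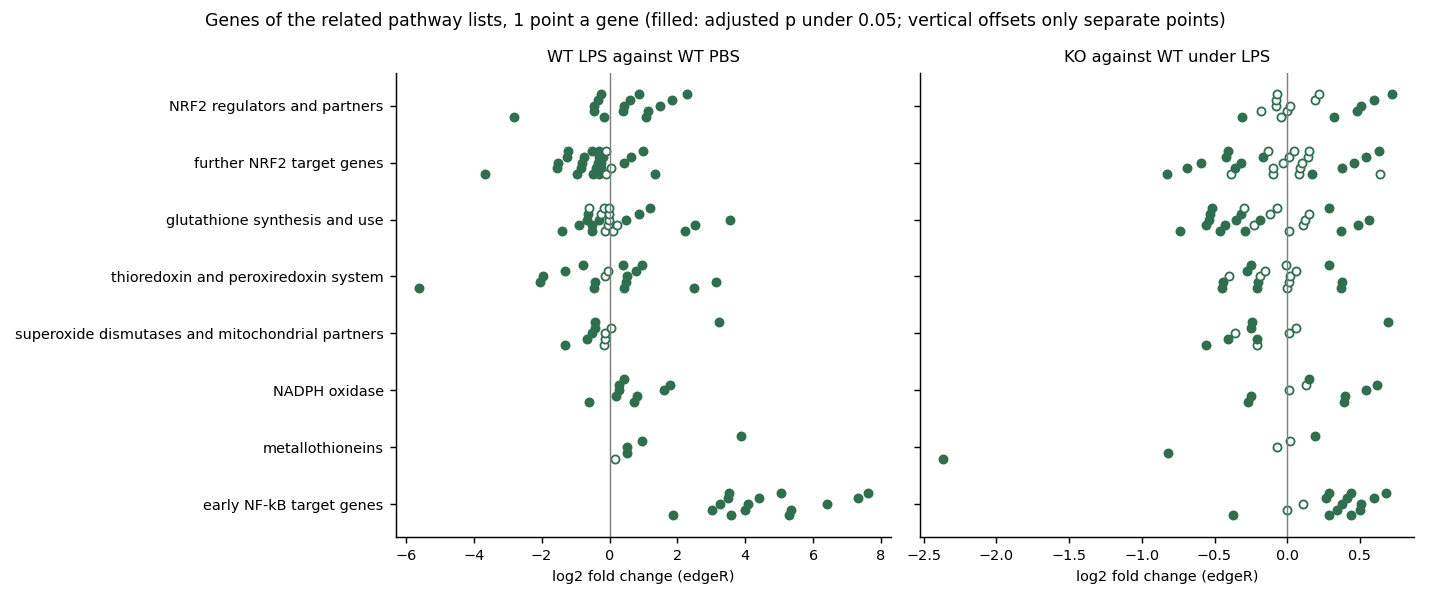
Each point is a gene of a related list, at its log2 fold change with LPS in WT cells (left) or between KO-labelled and WT cells under LPS (right); filled points passed the edgeR threshold. The NF-kB targets all lie right of 0 with LPS, while the further NRF2 targets and the glutathione genes lie on both sides of 0 in both panels.

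Genes whose pattern over the 12 libraries was closest to that of a member were ranked by the distance between their log2 CPM values, centred on their means, over 12054 genes. Nearest to Sod2 were Ccrl2 (0.364), Cd274 (0.375) and Ifi204 (0.392), of which Cd274, the checkpoint ligand PD-L1, went from 99.8 ± 4.63 to 2232 ± 126 CPM in WT cells and reached 2816 ± 68.4 CPM in KO LPS libraries. Nearest to Nfe2l2 were Ppp6c (0.157), a phosphatase subunit, Serinc1 (0.160) and the gene listed as number 105246811 (0.185). Slc7a11 had no neighbour of that closeness. Among its nearest were Pax4 (1.2), which stayed under 3 CPM in every library, and Adora2b (1.32), an adenosine receptor that held 2.56 ± 0.322 CPM in WT PBS, 30.6 ± 1.55 in WT LPS, 2.12 ± 0.493 in KO PBS and 119 ± 8.36 CPM in KO LPS libraries. Adora2b therefore shared with Slc7a11 a several-fold higher level in KO LPS than in WT LPS libraries, which is what the ranking selects on.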

How the data were processed

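RNA-seq of 12 libraries (3 per group, single-end reads from a BGISEQ-500) was analysed from the expected counts per gene that the authors deposited, which are estimated counts not scaled between libraries. The submitters' processing notes name Bowtie2, RSEM 1.3.1 and GRCm38.p6, whereas the paper's methods name STAR and HTSeq. Between 24.6% and 26.9% of values per library carried decimals. They were rounded and tested in R 4.3.3 with edgeR 4.0.16 (limma 3.58.1): filterByExpr on the 4 groups left 12064 of 16920 genes, scaling was by the trimmed mean of M values (TMM), and 1 robust quasi-likelihood model with a mean per group gave 5 contrasts, two-sided, with Benjamini-Hochberg adjustment over all genes tested and a threshold of 0.05. The replicates' typical biological coefficient of variation was 6.99%. SE and 95% intervals are those of the fitted log2 fold changes. Floors cover counting error only, since reads carried no molecular identifiers.

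The members and pathway lists were chosen with earlier results of these data known. Named outside the members are, per list, up to 2 genes each way with the largest called change and a mean of 5 CPM or more in whichever group was higher, for LPS in WT and for KO against WT under LPS, beside Keap1, Bach1, Hmox1 and Sod1, and the 3 nearest patterns of Nfe2l2, Slc7a11 and Sod2; 2 genes that this rule selects are not reported here. Positions, promoter windows and start sites are those of RefSeq on GRCm38.p6 (16803 of 16920 gene numbers matched), with windows for 8 of the 10 members. Transcript lengths are those of the GENCODE annotation. Alternatives were RLE, upper-quartile and library-total scaling, other filters, DESeq2 1.42.0, only the libraries compared, a replicate block, unrounded values, each library left out and a fold threshold.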

Additional observations from a re-analysis of the deposited data

Results flagged for a closer look

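The LPS response differed between the genotype labels, by the interaction term of the edgeR model, for 7 of the 10 genes, while 9.78% of all genes tested had a higher and 8.26% a lower interaction. The response of KO-labelled cells minus that of WT cells on the log2 scale was 1.87 for Slc7a11, 0.72 for Txnrd1, 0.55 for Sod2, 0.49 for Gclc, 0.47 for Srxn1, 0.34 for Gsr and 0.26 for Nfe2l2. With library totals alone 4 of these calls were left, since Gclc (adjusted p = 0.0719), Gsr (0.0688) and Nfe2l2 (0.254) missed the threshold, and Nfe2l2 missed it with upper-quartile scaling too (0.0623). For Srxn1 the KO-labelled libraries moved up with LPS and the WT libraries down, except that upper-quartile and library-total scaling put both responses below 0.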

How the results depend on the processing

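Of 1090 log2 fold changes of the 10 genes recomputed under an alternative, 1027 kept their direction and their side of the threshold, 39 lost a call, 4 gained a call and 20 changed sign. Requiring a log2 fold change over 1 as well left 3 higher genes and 1 lower gene with LPS in WT, 5 higher genes and 1 lower gene with LPS in KO-labelled cells, 0 higher under PBS and 2 under LPS between the genotypes, and 1 interaction. Library totals alone gave, with LPS, -0.11 for Nfe2l2 and -0.12 for Txnrd1 in WT and -0.52 for Srxn1 in KO-labelled cells, between the genotypes 0.03 for Prdx1 under PBS and -0.06 for Nqo1 under LPS, and 4 interaction calls, with interactions of -0.05 for Nqo1 and -0.08 for Gclm. By construction that scaling moves every gene of a comparison by nearly the same amount. Upper-quartile scaling gave -0.08 for Srxn1 with LPS in KO-labelled cells and, between the genotypes, -0.01 for Srxn1 under PBS and -0.04 for Nqo1 under LPS. Fitting only the libraries compared made Sod2 the 1 lower gene under PBS (-0.13, adjusted p = 0.0336), and the cause was not tested. With each library left out in turn, the calls in the LPS comparisons and between the genotypes under LPS did not change in number, those under PBS ranged from 3 to 5 and those of the interaction from 5 to 7. Small uncalled differences crossed 0 in these fits: between the genotypes Srxn1 (-0.01 to 0.06) and Prdx1 (-0.02 to 0.02) under PBS and Nqo1 (-0.05 to 0.13) under LPS, and the interaction of Gclm (-0.02 to 0.12). Samples with the same replicate number had small correlations of their deviations from the group mean (-0.076 to 0.127). In KO-labelled cells each LPS library nevertheless correlated best with the PBS library of its own number, which did not hold throughout in the other comparisons. These values cannot tell whether samples of the same number were paired. With a replicate block the interaction was 1.87 for Slc7a11 and 0.56 for Sod2, and no call of a member changed. Depth limits Nqo1, and the order of levels per kilobase rests on the transcript length chosen.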
